A study of Macaca nemestrina with 15 samples.

Results

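The comparison described here is week 12 vs. pre-treatment in peripheral blood mononuclear cells (PBMCs) of 5 pig-tailed macaques given islatravir (ISL), and it rests on 10 of the 15 RNA-seq libraries of the series, 5 labelled pre-treatment and 5 labelled week 12. Each animal gave 1 library at each time point, and the libraries were paired by the animal named in the subject label (Z15228, Z13076, Z15339, Z15303 and Z15408, the order in which values are given below). All animals were female, and all received oral ISL at 30 mg/kg by gavage once weekly for 12 weeks. The pre-treatment libraries came from blood drawn before any dose, and the week 12 libraries from the end of dosing. The remaining 5 libraries were those of the same animals labelled week 18, which entered the model so that the spread between libraries was estimated with 8 residual degrees of freedom. The study's methods place them 6 weeks past the end of dosing, and a figure caption of the study gives a shorter interval and an earlier week. There was no untreated group, so dosing and the passage of time cannot be told apart.

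ISL is a deoxyadenosine analog that inhibits HIV reverse transcriptase. It becomes active only after cellular kinases have added phosphates to it, and the triphosphate persists for long in blood mononuclear cells. PBMCs are a mixture of T cells, B cells, natural killer cells, monocytes and dendritic cells, with some platelets. In bulk RNA from such a mixture, fewer cells of a type and less RNA per cell cannot be told apart.

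Counts on genes ranged from 7909621 to 10379572 per library before treatment and from 5610597 to 9855902 at week 12, with 15748 to 16556 features detected per library. The lowest total was that of Z15303 at week 12. Defining markers of B cells (*MS4A1*, *CD79A*), T cells (*CD3D*, *CD3E*), cytotoxic lymphocytes, monocytes, dendritic cells and platelets were detected in all 10 libraries. The red cell marker *ALAS2* ranged from 34.7 to 765 CPM (CPM, gene counts divided by the TMM-scaled library size) and the neutrophil marker *MMP8* was at 0 in 1 library. Another neutrophil marker, *CAMP*, was at 42.6 to 188 CPM before treatment and 60.6 to 227 CPM at week 12. *HBB* and *CXCR2* were not analysed here. Dates in the library titles, whose meaning is not stated, lie 56 or 57 days (8 weeks) apart between both samples of an animal, although the later one is labelled week 12. The libraries labelled week 18 carry dates 84 days after the pre-treatment ones, so the stated week numbers could not be matched to the dates. The shorter interval in the study's figure caption lies closer to the spacing between the week 12 and week 18 dates. Z15339, Z15303 and Z15408 shared their dates at each time point, so every date belongs to 1 time point and the date and the time point cannot be told apart.

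Of 12880 features tested, 1 (0.00776%) changed at an adjusted p under 0.05 in the edgeR quasi-likelihood test blocked by animal. The feature was the immunoglobulin kappa segment *IGKV1OR2-108*, which fell. The count depended on the method: in edgeR it was 0 with the 10 libraries of this comparison alone, 0 without the animal term and 83 without the filter on low counts. It was 3 in limma-voom and 21 in DESeq2 with the animal term. DESeq2 without that term called 1 feature, which was *PHTF2* and not *IGKV1OR2-108*. At an unadjusted p under 0.05 the test had 604 features (4.69%), of which 419 (3.25%) were lower and 185 (1.44%) higher at week 12. The median log2 fold change over all tested features was 0.00, which the TMM scaling itself sets close to 0. The excess of lower features was not seen in every subset of animals: with only the 3 animals of shared dates, a subset added after the data were seen, 1020 features were lower and 1098 higher at that threshold. The plot of fold change against p shows the longer arm on the lower side.

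**Figure D1:**
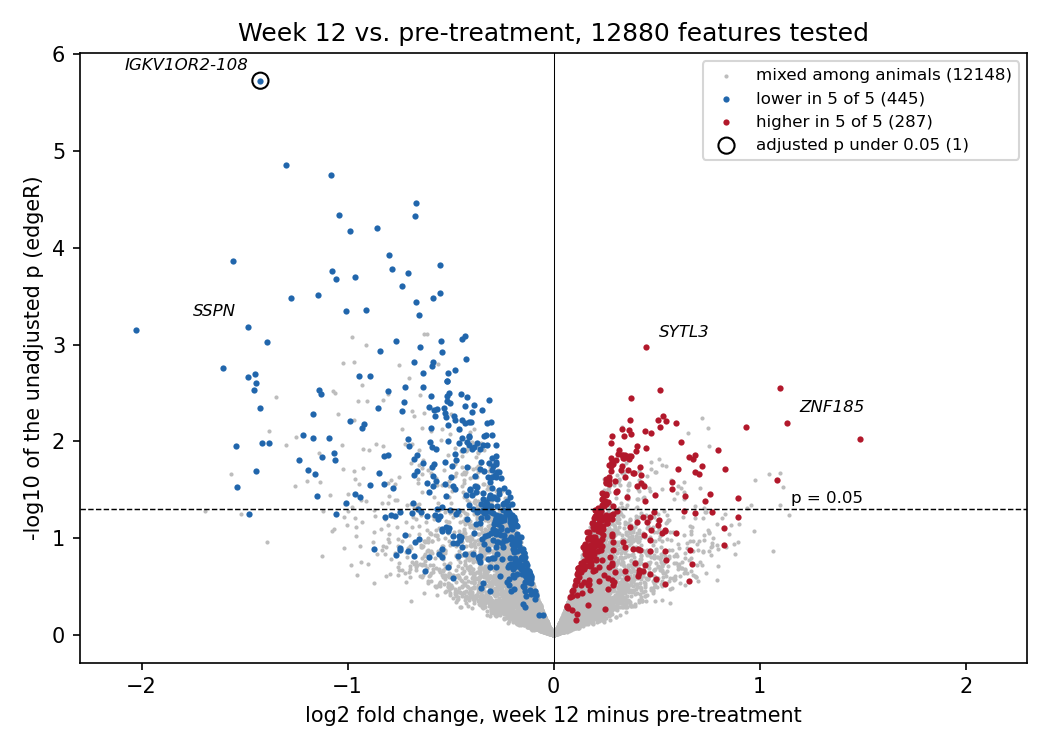
Log2 fold change (week 12 minus pre-treatment, horizontal axis) against −log10 of the unadjusted edgeR p (vertical axis) for the 12880 features tested, 1 point each. Blue points were lower in 5 of 5 animals (445), red points higher in 5 of 5 (287), grey points mixed, and the ring marks *IGKV1OR2-108*, the 1 feature with an adjusted p under 0.05.

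A feature was counted as uniform when its log2 CPM at week 12 minus pre-treatment had the same sign in all 5 animals. There were 445 uniformly lower features (3.45% of those tested) and 287 uniformly higher ones (2.23%), 732 in all (5.68%). These counts describe the data and were not tested, and a feature's place among them is no call. The lower ones differed more in size. Their median log2 fold change was −0.36 with a lowest value of −2.03, against 0.26 with a highest value of 1.49 for the uniformly higher features. A log2 fold change of 1 or more in size was found for 40 of the uniformly lower and 4 of the uniformly higher features.

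Asking for a larger change in every animal lowered both counts and made them more unequal in proportion. With at least 0.1 on the log2 scale in each animal, 200 features were lower and 74 higher. With at least 0.25 these were 74 and 20, and with at least 0.5 they were 27 and 1. One feature was lower by at least 1 in each animal and none was higher by that much. The lower direction was more frequent among weakly expressed features: of the 3220 features with the lowest mean CPM, 128 (3.98%) were uniformly lower and 74 (2.3%) uniformly higher, while of the 3220 with the highest, 84 (2.61%) were lower and 76 (2.36%) higher.

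**Figure D2:**
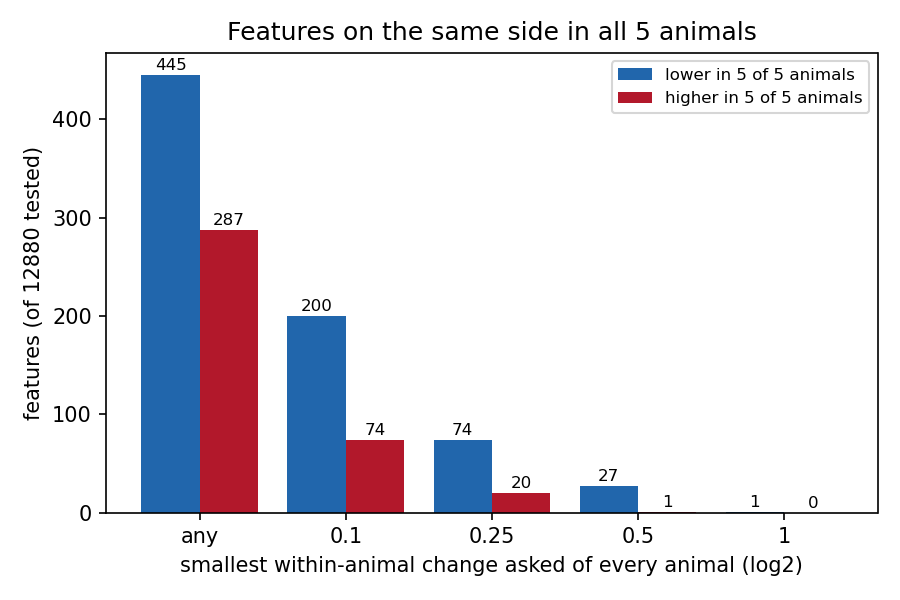
Number of features (vertical axis) lower (blue) or higher (red) in all 5 animals, by the smallest within-animal log2 change asked of every animal (horizontal axis). The counts go from 445 and 287 with no minimum to 27 and 1 at 0.5.

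The animals differed in how many features moved by a log2 change of at least 1, without regard to the others. Z15303 had 535 lower and 527 higher, Z13076 had 518 and 507, Z15408 had 378 and 306, Z15228 had 417 and 198, and Z15339 had 231 and 208. Z15228 was the animal with the most unequal directions. The median change of the uniformly lower features ranged only from −0.35 to −0.27 across animals, and that of the uniformly higher features from 0.17 to 0.30.

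*IGKV1OR2-108*, an immunoglobulin kappa variable segment transcribed in B-lineage cells, was at 31.5, 15.5, 25.9, 9.43 and 7.19 CPM before treatment and at 7.48, 5.78, 13.4, 2.4 and 4.11 CPM at week 12. Every animal was lower, but the groups overlapped because the animals started from different levels. The log2 fold change was −1.42 (SE 0.20, adjusted p = 0.0242, edgeR). Leaving out 1 animal at a time gave adjusted p-values from 0.0382 (without Z13076) to 0.434 (without Z15228), and the call was lost without Z15228, Z15339, Z15303 or Z15408. Reads that match several closely related kappa segments may have been left out of the counts.

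Of the uniformly lower features, 218 (1.69% of those tested) also had an unadjusted p under 0.05. Of these, 33 (15.1%) were on the study's week 12 list, among its B-cell genes or among other B-cell markers. Those lists held 27, 12 and 26 of the 12880 features tested, with genes shared between the study's lists. All 27 of the week 12 list had an unadjusted p under 0.05 on the lower side, and 25 were uniformly lower. The 12 B-cell genes that the study named were each lower in 5 of 5 animals, and their log2 fold changes had a median of −1.03 against 0.00 over all features. The study chose those genes and its week 12 list on these same samples. Their direction and their part of the 33 are therefore not independent evidence. Among 26 other B-cell markers tested, 13 had an unadjusted p under 0.05, all lower (against 3.25% of all features). Of the 26, 8 were lower in every animal (against 3.45% of all features) and none was higher in every animal, with a median of −0.44. The summed CPM of these markers was 345 to 515 before and 279 to 414 at week 12, lower in 5 of 5 animals, and the part of B cells in the results for other genes was not tested. *VPREB3*, a VpreB-family protein of the B lineage, was one whose groups did not overlap, at 1.95, 1.47, 1.79, 2.77 and 1.48 CPM before and 0.623, 0.723, 0.773, 1.11 and 0.301 CPM at week 12 (log2 fold change −1.45, SE 0.41, adjusted p = 0.532). Its values rest on 3 to 25 reads per library. *CR2* (−0.91, SE 0.23) and *RALGPS2* (−1.02, SE 0.27) had smaller p-values, but each was lower in only 4 of 5 animals. Of the plasma cell genes, 2 of 14 had an unadjusted p under 0.05, both lower (against 3.25% of all features), and 0 were lower in every animal. *JCHAIN*, which joins secreted IgM and IgA into polymers, was at 333, 112, 705, 117 and 110 CPM before and 117, 83, 407, 44.3 and 137 CPM at week 12, so Z15408 went against the other animals.

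Beyond these lists, 185 uniformly lower features with an unadjusted p under 0.05 remained, 18 of them on another list and 167 on none. None passed the adjusted threshold. The named genes are *LGALS12*, *SSPN*, *SH3BP5*, *TMEM170B*, *KMO*, *SLC37A2*, *CD300H*, *CPED1*, *DUSP5*, *CD180*, *GCSAM* and *SLC22A5*, joined by *XKRX*, *TLR2* and *RAB30* for the size of their change. Their adjusted p-values in edgeR ranged from 0.24 to 0.798. Some of them are genes that the study reported outside those lists. It named *CD300H* as underexpressed after treatment, and its supplement describes *SSPN*, *DUSP5* and *XKRX* among differentially expressed genes.

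*LGALS12* encodes galectin-12, a sugar-binding protein. It was at 10.1, 6.88, 12.7, 20.5 and 2.05 CPM before treatment and 5.61, 2.41, 9.27, 12.4 and 0.602 CPM at week 12 (log2 fold change −0.91, SE 0.21, adjusted p = 0.24). Z15408 had the lowest level at both times, at 18 and 6 reads, so its change is the least precise. *SSPN* encodes sarcospan, a membrane protein of the dystrophin complex. It was at 5.85, 1.58, 10.6, 2.11 and 2.17 CPM before and 1.66, 0.723, 2.54, 0.923 and 1.3 CPM after (log2 fold change −1.48, SE 0.36, adjusted p = 0.324). Both genes varied more between animals than they moved within one, and their groups overlapped.

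*SH3BP5*, which encodes a binding partner and inhibitor of Bruton's tyrosine kinase, was expressed far more evenly. It was at 165, 156, 159, 137 and 133 CPM before and 108, 105, 143, 90.6 and 112 CPM at week 12 (log2 fold change −0.45, SE 0.11, adjusted p = 0.348). Only Z15339, at 143 CPM, stayed inside the pre-treatment range. *KMO*, the kynurenine 3-monooxygenase of tryptophan breakdown, was at 18, 26.7, 28.9, 44.5 and 26 CPM before and 13.6, 14.2, 18.9, 20.5 and 24.4 CPM after (log2 fold change −0.65, SE 0.17, adjusted p = 0.362). The difference was largest in Z15303 (−1.11) and smallest in Z15408 (−0.09).

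Further genes on the lower side encode cell-surface receptors and a regulator of signalling. *TLR2*, a Toll-like receptor for bacterial lipoproteins, was at 23.8, 35, 29.4, 28.3 and 45.5 CPM before and 12.5, 23.7, 21.3, 9.96 and 34.1 CPM at week 12 (log2 fold change −0.74, SE 0.23, adjusted p = 0.627). *CD180*, a Toll-like receptor homolog of B cells and myeloid cells, had a log2 fold change of −0.59 (SE 0.16) and was lower by at least 0.37 in every animal. *CD300H*, of the CD300 family of myeloid receptors, had the most reads of the 15 genes, 918 to 2823 per library, and was at 214 ± 79.8 CPM before and 159 ± 55 CPM after (SD, n = 5). *DUSP5*, a nuclear phosphatase induced by and acting on ERK, was at 68.6, 24.6, 34.7, 30.7 and 17.5 CPM before and 40.7, 8.07, 24.6, 27.3 and 13.5 CPM after. Its change was −1.58 in Z13076 and −0.17 in Z15303, and its log2 fold change was −0.68 (SE 0.18, adjusted p = 0.442, edgeR).

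The transporters were *SLC37A2*, a sugar phosphate exchanger of macrophages (log2 fold change −0.54, SE 0.14), and *SLC22A5*, the carnitine transporter (−0.63, SE 0.17). *RAB30*, a small GTPase of the Golgi, had a log2 fold change of −0.72 (SE 0.22). For *GCSAM*, which encodes a signalling adaptor of germinal centre B cells, counts went down to 0 in Z15303 at week 12, and its log2 fold change of −1.60 (SE 0.44) rests on 0 to 56 reads per library.

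**Figure D3:**
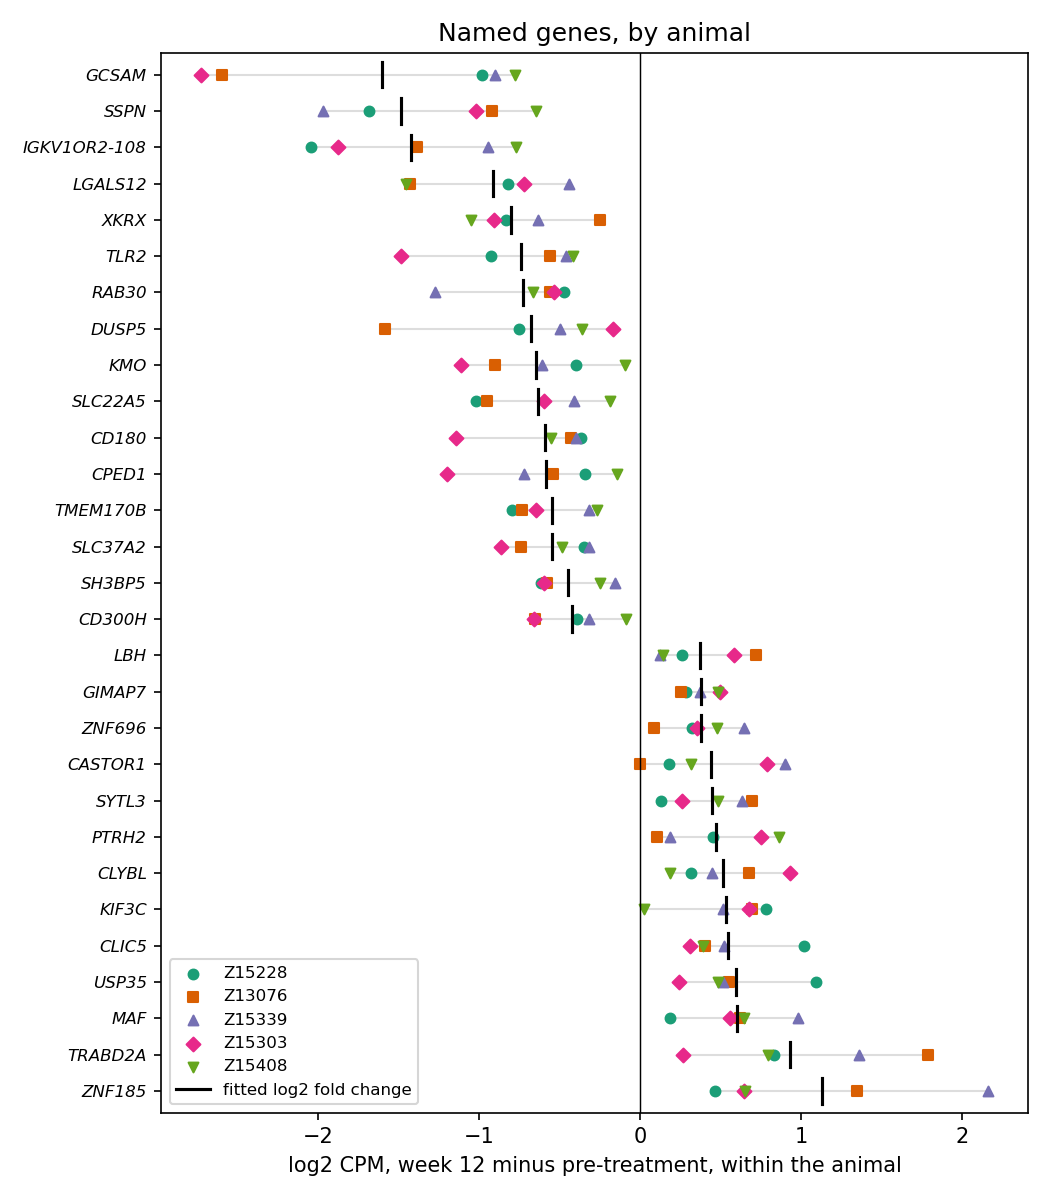
Within-animal log2 CPM change (week 12 minus pre-treatment, horizontal axis) of the 29 named genes, 1 coloured symbol per animal, with the fitted log2 fold change as a black bar. All symbols lie on one side of 0 for each gene, but that of *CASTOR1* in Z13076 is at 0.00.

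The uniformly higher direction held 96 features with an unadjusted p under 0.05 (0.745% of those tested). None of the 96 was on the study's lists used above or among the other B-cell markers, 5 were on another list, and 91 were on none. None passed the adjusted threshold, and edgeR's adjusted p-values of the named ones ranged from 0.362 to 0.852. The genes were *SYTL3*, *GIMAP7*, *KIF3C*, *LBH*, *CLIC5*, *ZNF185*, *USP35*, *CLYBL*, *TRABD2A*, *CASTOR1*, *PTRH2* and *ZNF696*, and *MAF* for the size of its change. Of these, *SYTL3* was reported by the study outside those lists, as its supplement describes the gene among differentially expressed ones.

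*SYTL3*, a synaptotagmin-like effector of vesicle transport, was at 66.4, 66.8, 55.3, 43.9 and 45.3 CPM before treatment and 72.6, 108, 85.9, 52.8 and 63.6 CPM at week 12 (log2 fold change 0.45, SE 0.12, adjusted p = 0.362). *GIMAP7*, a lymphocyte GTPase, was at 317, 310, 275, 361 and 289 CPM before and 386, 370, 357, 509 and 405 CPM after (log2 fold change 0.38, SE 0.11, adjusted p = 0.574). *GIMAP7* had the most reads of the higher genes, 2306 to 4041 per library, and its animals lay close together, from 0.26 to 0.50. The week 12 value of Z15339, 357 CPM, was below the pre-treatment value of Z15303, 361 CPM, so that the groups just overlapped.

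*ZNF185*, a LIM domain protein of the actin cytoskeleton, had the largest fold change among the named higher genes. It was at 1.44, 0.564, 0.358, 1.33 and 1.26 CPM before and 2.08, 1.81, 2.43, 2.21 and 2.11 CPM after (log2 fold change 1.13, SE 0.37, adjusted p = 0.669). The groups did not overlap, but the values rest on 3 to 22 reads per library. *TRABD2A*, a membrane metalloprotease that acts on Wnt proteins, was at 2.98, 0.564, 0.716, 5.33 and 2.97 CPM before and 5.5, 2.53, 2.21, 6.46 and 5.32 CPM after (log2 fold change 0.93, SE 0.31).

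*MAF*, a transcription factor of helper T cells, was at 7.81, 9.48, 5.25, 4.44 and 6.96 CPM before and 8.93, 14.7, 10.6, 6.64 and 11 CPM after (log2 fold change 0.60, SE 0.24, adjusted p = 0.852). *KIF3C*, a kinesin motor subunit, was at 6.37, 10.6, 11.1, 10.7 and 16.1 CPM before and 11.1, 17.3, 16, 17.2 and 16.4 CPM after (log2 fold change 0.53, SE 0.17). Z15408 started at the highest *KIF3C* level and was higher by only 0.02, while the other animals were higher by 0.52 to 0.78. Metabolic genes in the set were *CASTOR1*, the cytosolic arginine sensor of mTORC1 (0.44, SE 0.15), *CLYBL*, a mitochondrial lyase (0.51, SE 0.17), and *PTRH2*, a mitochondrial peptidyl-tRNA hydrolase (0.48, SE 0.16). *CASTOR1* was at 18.1 CPM at both times in Z13076, so its uniformity rests on 4 animals.

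**Figure D4:**
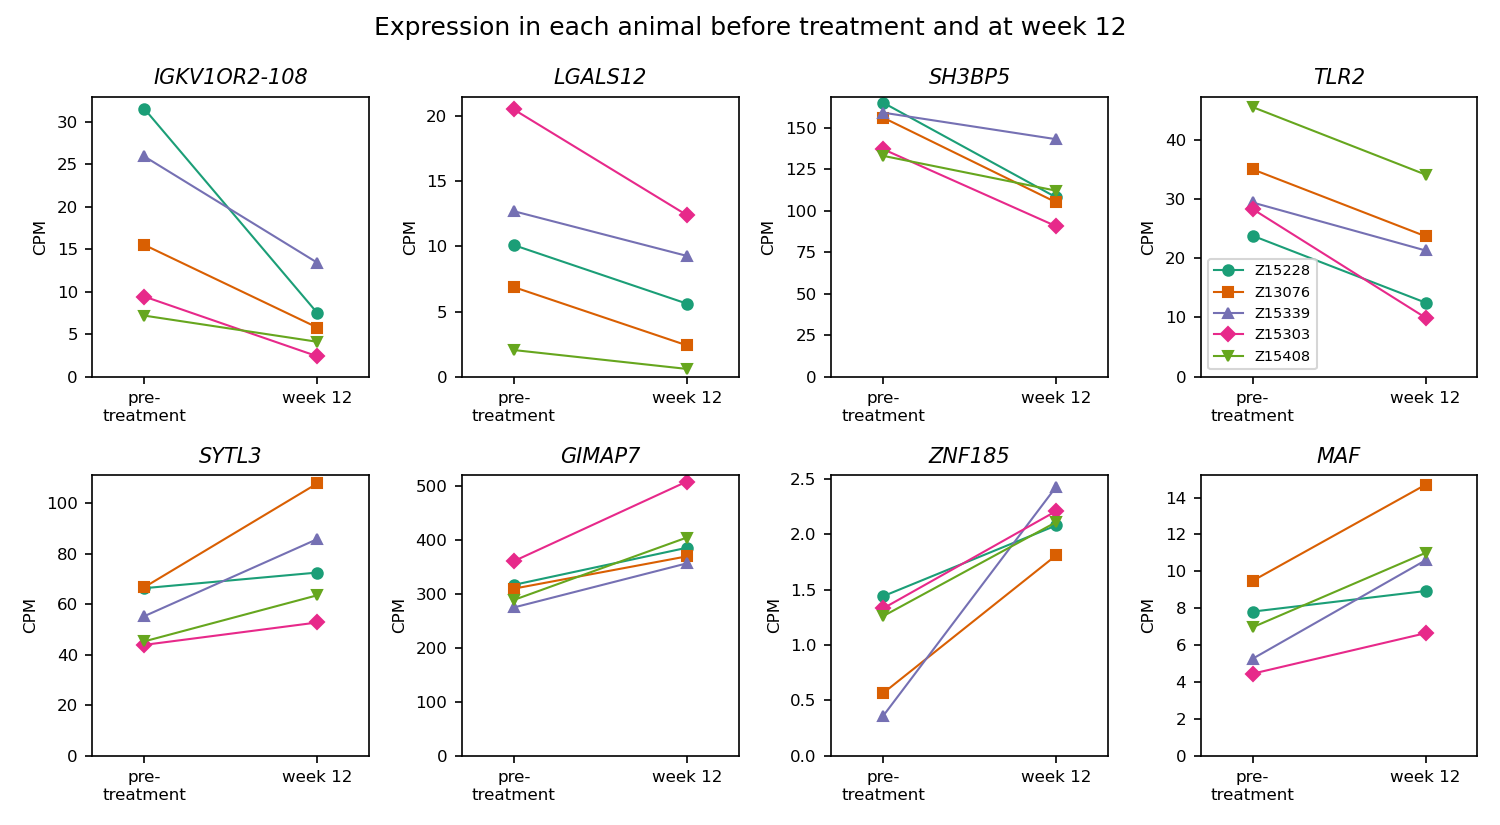
CPM (vertical axes, from 0) before treatment and at week 12 for 4 lower and 4 higher genes, 1 line per animal. Lines slope down for *IGKV1OR2-108*, *LGALS12*, *SH3BP5* and *TLR2* and up for *SYTL3*, *GIMAP7*, *ZNF185* and *MAF*, and the groups are apart only for *ZNF185*.

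Of 33 Toll-like receptor pathway genes tested, 7 had an unadjusted p under 0.05, all lower (against 3.25% of all features), and 6 were lower in all animals (against 3.45% of all features) and none higher. The median over the list was −0.16 on the log2 scale, with medians from −0.28 to −0.04 in the 5 animals, and it ranged from −0.24 to −0.08 when 1 animal was left out. Besides *TLR2*, these were *IRAK3*, an inhibitory kinase of the pathway (−0.48, SE 0.15, lower in 5 of 5), *TLR10*, a receptor mostly of B cells (−1.09, SE 0.37, lower in 5 of 5), *TBK1*, the kinase upstream of interferon regulatory factors (−0.46, SE 0.15, lower in 4 of 5), *LY96*, the co-receptor of TLR4 (−0.44, SE 0.17, lower in 4 of 5), *TAB3* and *TRAF3*. *IRAK3* was at 20.1, 16.5, 21.2, 23 and 16.9 CPM before and 10.1, 10.5, 16.8, 19 and 14.6 CPM after, and its groups overlapped. None of the 33 passed the adjusted threshold in edgeR, the smallest adjusted p being 0.627.

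Immediate early and NF-κB response genes, which are induced within minutes to hours of cell stimulation, had 6 of 47 members with an unadjusted p under 0.05, all lower (against 3.25% of all features), 5 members lower in every animal (against 3.45% of all features) and 1 higher (against 2.23%). Their median was −0.14. The members lower in 5 of 5 animals at that threshold were *DUSP5*, *REL*, an NF-κB subunit of lymphocytes (−0.42, SE 0.12), *ATF3*, a stress-induced transcription factor (−0.46, SE 0.15), and *KLF4*, a transcription factor of monocytes (−0.44, SE 0.16). *REL* was at 24.7, 24.5, 22.6, 36.6 and 33 CPM before and 19.7, 17.2, 20.3, 29.9 and 18.8 CPM after. *SOCS3*, the feedback inhibitor of STAT3 signalling, had the largest fold change of the list (−1.06, SE 0.31) but was higher by 0.23 in Z15339. *KLF6* was higher in every animal (0.22, SE 0.13). The list's median rested on some animals more than others, at −0.50 in Z13076 and 0.08 in Z15339, and it was 0.02 in the 3 animals of shared dates.

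Of 34 monocyte genes tested, 5 had an unadjusted p under 0.05, all lower (against 3.25% of all features), and 4 were lower in 5 of 5 animals (against 3.45% of all features). *CYBB*, the catalytic subunit of the phagocyte oxidase, was at 97.3, 178, 169, 185 and 214 CPM before and 86.3, 114, 133, 134 and 144 CPM after (log2 fold change −0.44, SE 0.14, adjusted p = 0.669). *CTSS*, the protease that trims the invariant chain of MHC class II, was at 466, 528, 368, 518 and 658 CPM before and 398, 365, 313, 418 and 412 CPM after (−0.40, SE 0.14, adjusted p = 0.769). The defining markers *CD14* and *VCAN* were lower in 3 of 5 animals and *LYZ* in 4 of 5. The list's summed CPM was 7682 to 12876 before and 7802 to 11232 at week 12, lower in 2 of 5 animals.

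Among 19 dendritic cell genes, 3 had an unadjusted p under 0.05 on the lower side (against 3.25% of all features). On the higher side 1 did (*CCR7*, shared with naive T cells, against 1.44% of all features). *CD1C*, the lipid-presenting marker of conventional dendritic cells that some B cells also carry, was at 151, 73.1, 93.5, 37.8 and 136 CPM before and 105, 58.8, 51.4, 36.3 and 97.9 CPM after (log2 fold change −0.45, SE 0.13, adjusted p = 0.559). *IRF8*, a transcription factor of dendritic and B cells, was lower in 5 of 5 animals too (−0.38, SE 0.14). Of 15 MHC class II pathway genes, *CTSS* (counted above among monocyte genes too), *HLA-DOB* and *HLA-DOA* had an unadjusted p under 0.05, all lower (against 3.25% of all features). *HLA-DOB* and *HLA-DOA*, the subunits of a modulator of peptide loading found mainly in B cells, had log2 fold changes of −0.38 (SE 0.15) and −0.41 (SE 0.19).

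These 3 lists differed between animals in the same pattern. The median change was −0.65 for monocyte, −0.88 for dendritic cell and −0.82 for MHC class II genes in Z13076, and 0.16, 0.37 and 0.34 in Z15408. In the 3 animals of shared dates the medians of the mean change were 0.16, 0.19 and 0.09, against −0.46, −0.41 and −0.51 in the other 2. The part of the library date in this was not tested.

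Of 22 T-cell markers tested, 20 had a positive log2 fold change, with a median of 0.09, 3 were higher (against 2.23% of all features) and none lower in all animals, and 2 had an unadjusted p under 0.05, both higher (against 1.44% of all features). Their summed CPM, 4955 to 6795 before and 5571 to 7637 at week 12, was higher in 5 of 5 animals. *CD6*, a T-cell scavenger receptor, was at 323, 587, 414, 449 and 346 CPM before and 467, 662, 456, 461 and 430 CPM after (log2 fold change 0.24, SE 0.11, adjusted p = 0.982). *CD3G* and *LAT*, components of the T-cell receptor complex and its signalling, were higher in every animal by as little as 0.01 and 0.04. *UBASH3A*, with the smallest p of the list, was higher in 4 of 5 animals (0.29, SE 0.12). The defining marker *CD3D* was lower in 2 of 5 animals and *CD3E* in 1 of 5.

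In naive and helper T-cell genes, 3 of 21 had an unadjusted p under 0.05, all higher (against 1.44% of all features): *CCR7*, the lymph node homing receptor (0.35, SE 0.13, higher in 4 of 5), *MAF*, and *KLF2*, a regulator of T-cell quiescence and trafficking (0.24, SE 0.11, higher in 5 of 5). *CTLA4*, an inhibitory receptor of activated and regulatory T cells, went the other way in all 5 animals. It was at 12 ± 2.2 CPM before and 8.56 ± 2.24 CPM after (SD, n = 5), with all week 12 values below all pre-treatment values, but by only 0.02 and 0.03 within Z15339 and Z15303 (log2 fold change −0.51, SE 0.24, adjusted p = 0.982). Over the 21 naive and helper T-cell genes the median was 0.02, with 10 negative and 11 positive log2 fold changes. The list's median ranged from −0.16 in Z15339 to 0.20 in Z13076. Among 27 cytotoxic lymphocyte genes none had an unadjusted p under 0.05 in edgeR and none was uniform in either direction, with a median of 0.11.

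Interferon-stimulated genes gave a case of 1 animal. Of 39 tested, 34 had a negative log2 fold change, yet 1 had an unadjusted p under 0.05 (*STAT2*, −0.24, SE 0.11, against 4.69% of all features). In every animal 1 was lower (*PARP9*, −0.28, SE 0.14, against 3.45% of all features). The median change was −1.33 in Z15303 and 0.11, −0.12, 0.03 and 0.27 in the other animals. Without Z15303 the list's median was 0.13, against −0.21 with all animals.

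Among 39 genes of nucleotide metabolism 1 had an unadjusted p under 0.05, against 4.69% of all features, with a median of 0.01, so the list did not stand out. The member was *DCK*, deoxycytidine kinase, the enzyme that adds the first phosphate to ISL and other deoxynucleoside analogs. *DCK* was at 19.9, 20.7, 23.2, 25.1 and 28.8 CPM before and 16.2, 14.9, 20.8, 16.6 and 21.9 CPM at week 12. It was lower in 5 of 5 animals, with overlapping groups (log2 fold change −0.38, SE 0.15, adjusted p = 0.862, edgeR).

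Of 24 genes for the upkeep of mitochondrial DNA, 1 had an unadjusted p under 0.05 (against 4.69% of all features). It was *ENDOG*, mitochondrial endonuclease G, at 56.6, 54.7, 57.9, 53.3 and 46 CPM before and 66.5, 61.2, 60.8, 60.2 and 67.3 CPM after (log2 fold change 0.24, SE 0.10, adjusted p = 0.955). Its groups did not overlap. Nuclear genes of the respiratory chain had 0 of 49 at that threshold, with a median of 0.08. Transcripts encoded by mitochondrial DNA were not analysed here. Mitochondrial ribosomal protein genes had 3 of 63, all higher (*MRPS34*, *MRPS18A* and *MRPL27*, 0.25 to 0.28, against 1.44% of all features), and 51 of 63 had a positive log2 fold change. The list's median change was −0.08 in both Z15228 and Z13076 and 0.06, 0.23 and 0.37 in the animals of shared dates, and its median of 0.08 was as low as 0.01 with 1 animal left out. Cytosolic ribosomal protein genes had 0 of 32 with a median of 0.18, and their medians ran from −0.58 in Z13076 to 0.83 in Z15303.

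Among 48 cell cycle genes none had an unadjusted p under 0.05 (against 4.69% of all features) and none was uniform, with a median of 0.04. Among 37 DNA replication genes 1 had such a p (*GINS3*, −0.78, SE 0.33). Of 28 p53 target genes 3 were lower (against 3.25% of all features) and 1 higher (against 1.44%) at that threshold. In every animal 5 were lower (against 3.45% of all features), but the median was 0.05. The lower ones were *PLK2* and *PLK3*, stress-induced polo-like kinases (−0.64, SE 0.18, and −0.41, SE 0.13, both lower in 5 of 5), and *TP53INP1* (−0.38, SE 0.18), and the higher one was *DDB2*, a DNA damage recognition protein (0.27, SE 0.13). *PLK2* was at 30.4, 34.5, 17.3, 24.1 and 20.8 CPM before and 23.3, 10.7, 14.1, 19.7 and 14 CPM after, with the largest change in Z13076. *CDKN1A* and *MDM2*, well-known targets of p53, were not among the uniform members. The death receptor *FAS*, a p53 target as well, was lower by 0.16 to 0.32 in each animal (−0.22, SE 0.11, adjusted p = 0.982).

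The other lists had counts near the background. Genes of the integrated stress response (1 of 21 with an unadjusted p under 0.05), chaperones (1 of 18, *HSPA6*, higher in 4 of 5), cholesterol synthesis (0 of 25), the BCL2 family (0 of 18), the proteasome (0 of 32), the spliceosome (1 of 45) and cytokine and chemokine receptors (1 of 33) had medians between −0.06 and 0.03. Markers of cells that a PBMC preparation can carry over had none past that threshold in edgeR: 0 of 22 platelet, 0 of 14 red cell and 0 of 20 granulocyte genes. Platelet genes varied most between animals, with a median of −1.17 in Z15228 and 1.14 in Z13076, and the list's median of 0.16 became −0.11 without Z13076. The summed CPM of the platelet list was 5697 to 13256 before and 4898 to 16193 at week 12. The part of these cells in the other results was not tested.

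**Figure D5:**
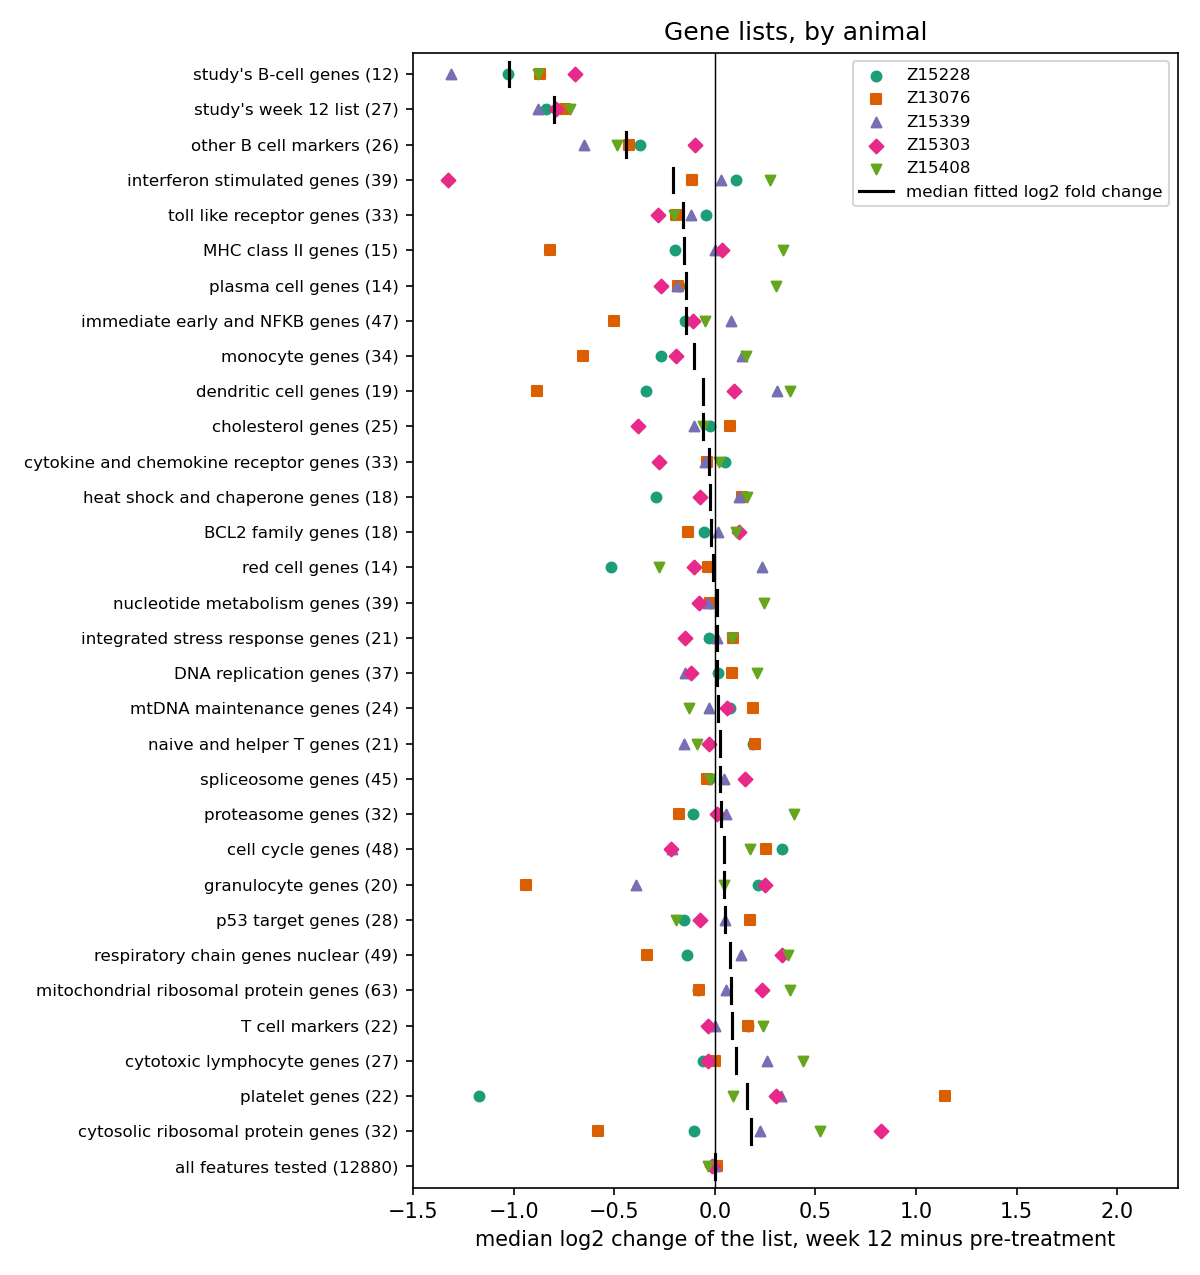
Median within-animal log2 change (week 12 minus pre-treatment, horizontal axis) of each gene list, 1 coloured symbol per animal, with the median fitted log2 fold change as a black bar and the number of genes tested in parentheses. The B-cell lists and the Toll-like receptor list lie below 0 in all 5 animals, and the interferon list has 1 distant animal, Z15303 at −1.33.

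For 21 features (0.163% of those tested) every week 12 value lay below every pre-treatment value, and for 15 (0.116%) every week 12 value lay above. The following of these were named after their values were seen. On the lower side were *PHTF2* (log2 fold change −0.68, adjusted p = 0.101), a gene of the study's own list, *PDCD1LG2*, the PD-1 ligand PD-L2 (−0.59, adjusted p = 0.568), and *SMAD1*, a mediator of bone morphogenetic protein signals (−0.43, adjusted p = 0.669). *PDCD1LG2* was at 17 ± 5.44 CPM before and 11 ± 0.791 CPM after (SD, n = 5), lower by 0.23 to 1.20 within animals. On the higher side were *POLR1C*, a subunit of RNA polymerases I and III (0.33, adjusted p = 0.798), *ATG16L1*, an autophagy protein (0.24, adjusted p = 0.975), and *MAD1L1*, a spindle checkpoint protein (0.28, adjusted p = 0.852).

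Week 18 vs. pre-treatment shares its pre-treatment libraries with week 12 vs. pre-treatment, so its values are given side by side only. *IGKV1OR2-108* had a log2 fold change of −1.42 at week 12 and −1.49 at week 18, *SSPN* −1.48 and −1.64, and *SH3BP5* −0.45 and −0.50. *TLR2* had −0.74 and −0.23, *CD180* −0.59 and −0.38, and *DCK* −0.38 and −0.19. Of the higher genes, *GIMAP7* had 0.38 and 0.29, *TRABD2A* 0.93 and 1.08, *KIF3C* 0.53 and 0.13, and *SYTL3* 0.45 and −0.22. *SYTL3* was lower than before treatment at week 18 in 4 of 5 animals, with 48, 61.3, 45.3, 45.8 and 37.3 CPM.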

How the data were processed

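The authors aligned paired-end reads of SMART-Seq v4 and Nextera XT libraries, which do not mark strand, with STAR 2.7.9a and deposited raw read counts per gene without normalization. Reads from overlapping antisense genes cannot be told apart. Of 28865 features listed, 20732 had at least 1 count, and 12880 (10773 with a symbol) passed edgeR's filterByExpr (minimum count 10). No coordinates or sequences were used, since only 231 of the 10773 symbols (2.14%) matched the gene table at hand.

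Tests used edgeR 4.0.16 (R 4.3.3): TMM, quasi-likelihood F test on all 15 libraries, time point plus animal, Benjamini-Hochberg over all features, threshold 0.05. The SE was the log2 fold change over the square root of F. Within-animal changes used log2 CPM with a prior count of 2. Pairing came from the subject label, and deviations from the time point means correlated by 0.506 on average (0.351 to 0.657) within animals and by −0.128 between them. The spread is that between 5 animals with 1 library each per time point.

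Alternatives were no animal term, 10 libraries, DESeq2 1.42.0, limma-voom (limma 3.58.1), other scalings, filters and prior counts, each animal left out, and 3 animals of shared dates. Methods were tested on simulated data.

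Named genes were those past the adjusted threshold and, outside the study's week 12 list and B-cell genes and with a symbol, uniform in 5 of 5 animals, the 12 of smallest p and the 4 of largest change (mean of at least 5 CPM) per direction. Up to 3 members per list were added, or 6 where counts stood out. Further members named in the text were chosen after their values were seen. The members and lists were chosen with earlier results of these data known.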

Additional observations from a re-analysis of the deposited data

Results flagged for a closer look

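In 7 of 89 groups of 5 values examined, 1 animal stood farther from the others than Dixon's 95% limit allows. Chance sets apart about 1 in 20 such groups. *GCSAM* was at 5.75 CPM before treatment in Z15228 against 1.03 to 2.27 in the other animals. *KIF3C* at week 12 was at 11.1 CPM in Z15228 against 16 to 17.3, and *RAB30* at week 12 was at 8.1 CPM in Z15228 against 4.31 to 5.06. The median within-animal change of the plasma cell genes was 0.302 in Z15408 against −0.269 to −0.178, and that of the nucleotide metabolism genes was 0.243 in Z15408 against −0.079 to −0.021. The median change of the interferon-stimulated genes was −1.329 in Z15303 against −0.116 to 0.273, and that of the cytokine and chemokine receptor genes was −0.279 in Z15303 against −0.047 to 0.048. The Z15303 library of week 12 also had the lowest total of the 10, 5610597 counts, and the part of depth in these values was not tested.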

How the results depend on the processing

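The 1 feature past the adjusted threshold became 0 in edgeR without the replicate block (smallest adjusted p 0.6, with 207 features at an unadjusted p under 0.05) and 0 with 10 libraries (0.0757, 449 features), 83 without a filter on low counts, 21 in DESeq2 with the replicate block, 3 in limma-voom, 7 with the 3 animals of shared dates, and 0 to 6 with 1 animal left out (6 without Z13076). DESeq2 without the replicate block called 1 feature, *PHTF2* (adjusted p = 0.0137). Without the filter the prior degrees of freedom were infinite, against 9.62 with it. Each feature's own spread between libraries was then set aside for the prior spread, so the 83 calls do not take it into account. Of the 21 calls of DESeq2, all lower, 20 were genes the study named. The lower and higher counts at an unadjusted p under 0.05, 419 and 185, became 140 and 67 without the replicate block, 165 and 104 in DESeq2 without it, 1020 and 1098 with 3 animals, and 305 to 728 and 132 to 525 with 1 animal left out, with both highest values without Z13076. Without the filter 306 were higher. A minimum of 0.1 in every animal left 200 uniformly lower and 74 higher, and 4 of 4 animals, with 1 left out, gave 684 to 1115 and 471 to 857. *IGKV1OR2-108* kept its direction but missed the adjusted threshold without the replicate block (adjusted p = 1 in edgeR and DESeq2), with 10 libraries (0.104) and with 3 animals (0.0824). *LGALS12*, *SSPN*, *KMO*, *SLC37A2*, *DUSP5*, *CD180* and *TLR2* passed it only without the filter. Over the 429 values for 29 named genes none reversed. Each of these genes moved the same way in all 5 animals, so a reversal could hardly occur and its absence is no evidence. The block changed no other named gene's call. List medians moved by less than their spread over animals, but many within 0.1 of 0 changed sign with 1 animal left out, as did those of the interferon (0.126 without Z15303) and platelet genes (−0.110 without Z13076). With the 3 animals of shared dates the medians of the monocyte (0.173), MHC class II (0.107) and immediate early genes (0.020) were above 0. Features under about 5 CPM rest on few reads, and their values are imprecise.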
